A study of Arabidopsis thaliana with 12 samples.

Results

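The comparison described here set 3 count tables named cdca7acdca7b against 3 count tables named col, in 6 of the 12 RNA-seq libraries of a study of *Arabidopsis thaliana* seedlings, with every listed feature kept (35651 genes and 31189 transposable elements, or TEs). The names on these tables and the titles of the samples they are attached to do not match. By sample title, the 3 tables named cdca7acdca7b belong to *h1.1 h1.2* and the 3 tables named col belong to *cdca7a cdca7b*. The genotype field gives Col-0, the wild-type accession, for all 12 samples and does not settle the question. Both namings are therefore carried: a table is called here by its table name, and the direction of every difference is cdca7acdca7b-named (titled *h1.1 h1.2*) over col-named (titled *cdca7a cdca7b*). The other 6 libraries are 3 tables named h1 (titled Col0) and 3 tables of the quadruple mutant *h1.1 h1.2 cdca7a cdca7b*, whose table name and title match.

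All plants were Col-0 seedlings harvested at 14 days, and each replicate was described as a single seedling. The *h1.1 h1.2* double mutant carries T-DNA insertions in the genes of linker histones H1.1 and H1.2, and the *cdca7a cdca7b* double mutant carries CRISPR-Cas9 mutations in *CDCA7α* and *CDCA7β*. The quadruple mutant carries mutations in all 4 genes, and whether its CRISPR alleles are those of the double mutant is not given in the sources used here. Since the table names and titles disagree, which of these alleles the 6 libraries carried cannot be told apart from the labels.

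CDCA7 proteins bind hemimethylated CG sites and work with the chromatin remodeler DDM1, which lets the methyltransferase MET1 copy CG methylation onto newly made DNA inside compact heterochromatin. Linker histone H1 packs that heterochromatin and limits the access of methyltransferases to it. In *Arabidopsis*, heterochromatin surrounds the centromeres, is rich in TEs and TE-derived pseudogenes, and is kept silent by DNA methylation. Loss of CG methylation in *met1* or *ddm1* mutants is known to allow transcription of some of these elements.

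The targeted genes did not decide between the namings. *H1.2* (AT2G30620) was counted 16, 3 and 9 times in the cdca7acdca7b-named tables, against 0, 1 and 2 in the col-named tables. It was the targeted gene with enough counts to be tested, and its log2 fold change of 3.13 (SE 1.24) had an adjusted p of 0.218 by edgeR's quasi-likelihood test. *H1.1* (AT1G06760) was counted 21, 1 and 0 times in the cdca7acdca7b-named tables and 0 in each col-named table, so a single library carried nearly all its counts. *CDCA7α* (AT4G37110) had 0, 0 and 5 counts in the cdca7acdca7b-named tables, against 3, 2 and 8 in the col-named tables. *CDCA7β* (AT2G23530) had 0 counts in every cdca7acdca7b-named table, against 0, 1 and 0 in the col-named tables. A sum of 0 counts over a set allows a level of up to 3 counts, so *CDCA7β* was not distinguishable between the sets at this depth, and *CDCA7α* had too few counts to be tested. In the quadruple mutant tables, *H1.1* had 4, 6 and 5 counts and *H1.2* had 7, 0 and 10. Counts at these genes were thus also seen where name and title both give H1 mutations. *CDCA7α* and *CDCA7β* had 0 counts in each quadruple mutant table. In the h1-named tables, *H1.1* had 3, 2 and 10 counts, *H1.2* had 1, 15 and 7, *CDCA7α* had 4, 2 and 10 and *CDCA7β* had 0, 7 and 0. Since the strand on which reads were counted is not given, these may not be counts of the genes' own messages.

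Counts assigned to features were few. Genes received 450869 to 833911 counts per library over the 12 libraries, 1.56 to 2.38% of the reads accounted for in each table, and TEs received 115994 to 208584 counts. Genes that overlap a gene on the opposite strand made up 22.4% of the positioned genes but took 68.0% to 82.7% of the gene counts in each library, and 16 of the 20 genes with the most counts overlapped such a gene. The kit was stranded, the strand option used in counting is not given in the sources used here, and a count printed here for a gene or TE may be of reads antisense to it. For example, *CWLP* (AT3G22120), chosen after its values were seen, had 614, 20 and 61 counts in the cdca7acdca7b-named tables against 6, 26 and 7 in the col-named tables, and its opposite-strand partner AT3G22121 had 23989, 20056 and 11008 against 26349, 41149 and 31760. Which strand the counted reads come from was not tested. The cdca7acdca7b-named tables also differed among themselves. A list of 45 photosynthesis genes, which should be abundant in seedlings, took 4.03%, 0.132% and 0.819% of the gene counts in replicates 1, 2 and 3, against 0.138%, 0.115% and 0.135% in the col-named tables. Of the 45, 15 overlap a gene on the opposite strand, 14 such genes in all. These 14 genes took 4.34%, 5.14% and 5.96% in the cdca7acdca7b-named tables, against 5.37%, 5.21% and 6.31% in the col-named tables. Replicate 1 of the cdca7acdca7b-named set therefore stood apart, and results that rest on it are given with and without it. Of 6 seed and flower markers, 5 were at 0 in all 6 libraries, and the summed counts were 0, 0 and 2 in the cdca7acdca7b-named tables and 0 in each col-named table. The plot of the photosynthesis share and of the number of genes counted shows the same library standing apart. Replicate 3, at 0.819%, also lay above the col-named libraries, and results given without replicate 1 still include replicate 3.

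**Figure D1:**
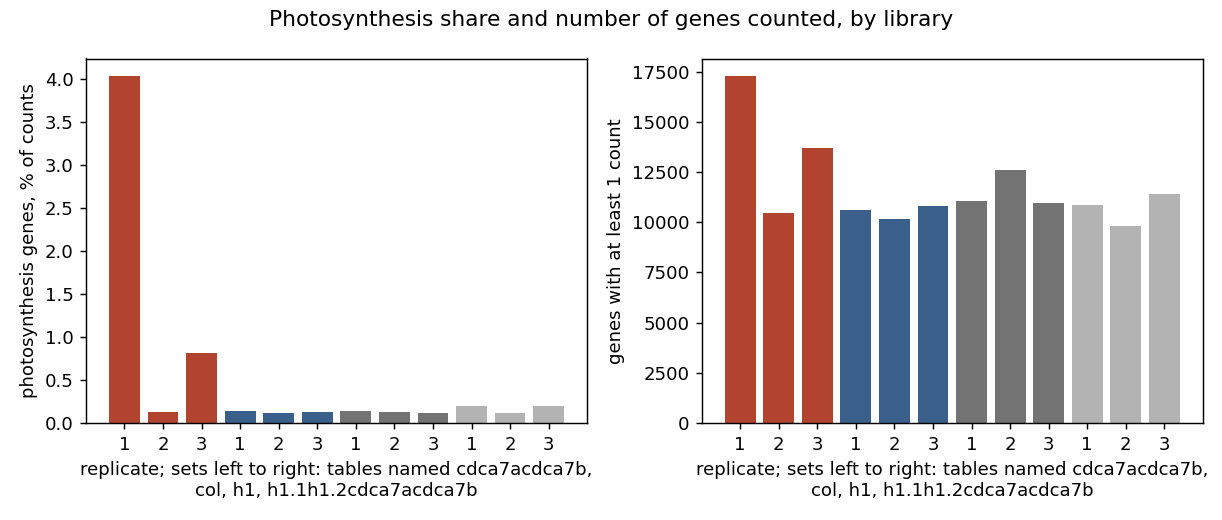
Share of gene counts taken by 45 photosynthesis genes (left, %) and number of genes with at least 1 count (right) in each of the 12 libraries, with sets drawn from left to right as cdca7acdca7b-named, col-named, h1-named and quadruple mutant. Replicate 1 of the cdca7acdca7b-named set, at 4.03% and 17286 genes, and replicate 3, at 0.819% and 13676 genes, stand above the 3 col-named libraries, which lie at 0.115% to 0.138% and 10167 to 10822 genes.

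TE calls changed less than gene calls when a library was left out. Of 753 TEs with enough counts to be tested, 36 were called higher in the cdca7acdca7b-named tables (4.78% of those tested) and 4 were called lower (0.531%), 40 in all (5.31%). A call needed an adjusted p under 0.05 by edgeR's quasi-likelihood test and a log2 fold change of 1 or more in size. In all 40, the 3 libraries of one set lay outside the range of the other, beside 9.03% of the tested TEs with all 3 cdca7acdca7b-named libraries above and 10.5% with all 3 below. Each library was left out in turn, and 28 of the 36 higher TEs were called in all 6 of those fits, as were AT4TE10035 and AT2TE35695 among the 4 lower ones. The number of higher TEs ranged from 32 to 42 in those fits. The number of lower TEs was 7 without cdca7acdca7b-named replicate 2, 2 without cdca7acdca7b-named replicate 3 and 2 without col-named replicate 2. No TE family or position is used here, and TEs are given by their identifiers, which number the elements along each chromosome.

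The called TEs were a small set picked for a change in level, so the shares below give its size and are no separate evidence of it. The 36 higher TEs took 3.79%, 4.21% and 4.21% of all TE counts in the cdca7acdca7b-named tables, against 0.319%, 0.174% and 0.110% in the col-named tables. AT2TE19615 alone had 2357, 1901 and 1674 of those counts in the cdca7acdca7b-named tables, against 2, 5 and 3 in the col-named tables. Its replicates were close together within each set, unlike those of the photosynthesis genes.

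Many of the higher TEs had no counts at all in the col-named tables, so their fold change has a lower bound only, set here with 3 counts over the col-named set and scaled to library size. AT1TE93275 had 203, 197 and 185 counts in the cdca7acdca7b-named tables and 0 in each col-named table, at least 205-fold higher. AT3TE50570 had 97, 57 and 60 counts in the cdca7acdca7b-named tables and 0 in each col-named table, at least 75.1-fold higher. AT5TE40530 had 19, 109 and 84 counts against 0 in each, at least 74.4-fold higher. These 3 elements lie on different chromosomes, and within the cdca7acdca7b-named set the lowest and highest counts of AT5TE40530 were the farthest apart. AT4TE09080, with 63, 88 and 49 counts in the cdca7acdca7b-named tables and 0 in each col-named table, was at least 70.1-fold higher. AT1TE45395 had 28, 63 and 66 counts against 0 in each, at least 55.1-fold higher. AT2TE16800 had 31, 85 and 33 counts against 0 in each, at least 52.3-fold higher. The last pair of elements also had 0 counts in all 3 h1-named tables and in all 3 quadruple mutant tables.

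A further 11 higher TEs had 0 counts in each col-named table, with lower bounds of 14.7-fold to 44.2-fold. Their highest replicate varied. AT3TE59470 had 15, 59 and 16 counts and AT2TE16725 had 6, 50 and 29 counts in the cdca7acdca7b-named tables, highest in replicate 2. AT4TE18500 had 16, 4 and 25 counts in the cdca7acdca7b-named tables, lowest in replicate 2. Other higher TEs had only a few col-named counts. AT4TE15420 had 194, 398 and 141 counts in the cdca7acdca7b-named tables, against 0, 2 and 2 in the col-named tables. AT4TE17660 had 152, 336 and 49 counts in the cdca7acdca7b-named tables, against 1, 0 and 1 in the col-named tables, a ratio of 283 with an exact counting interval of 77.8 to 2339 at 95%, which covers counting error only.

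**Figure D2:**
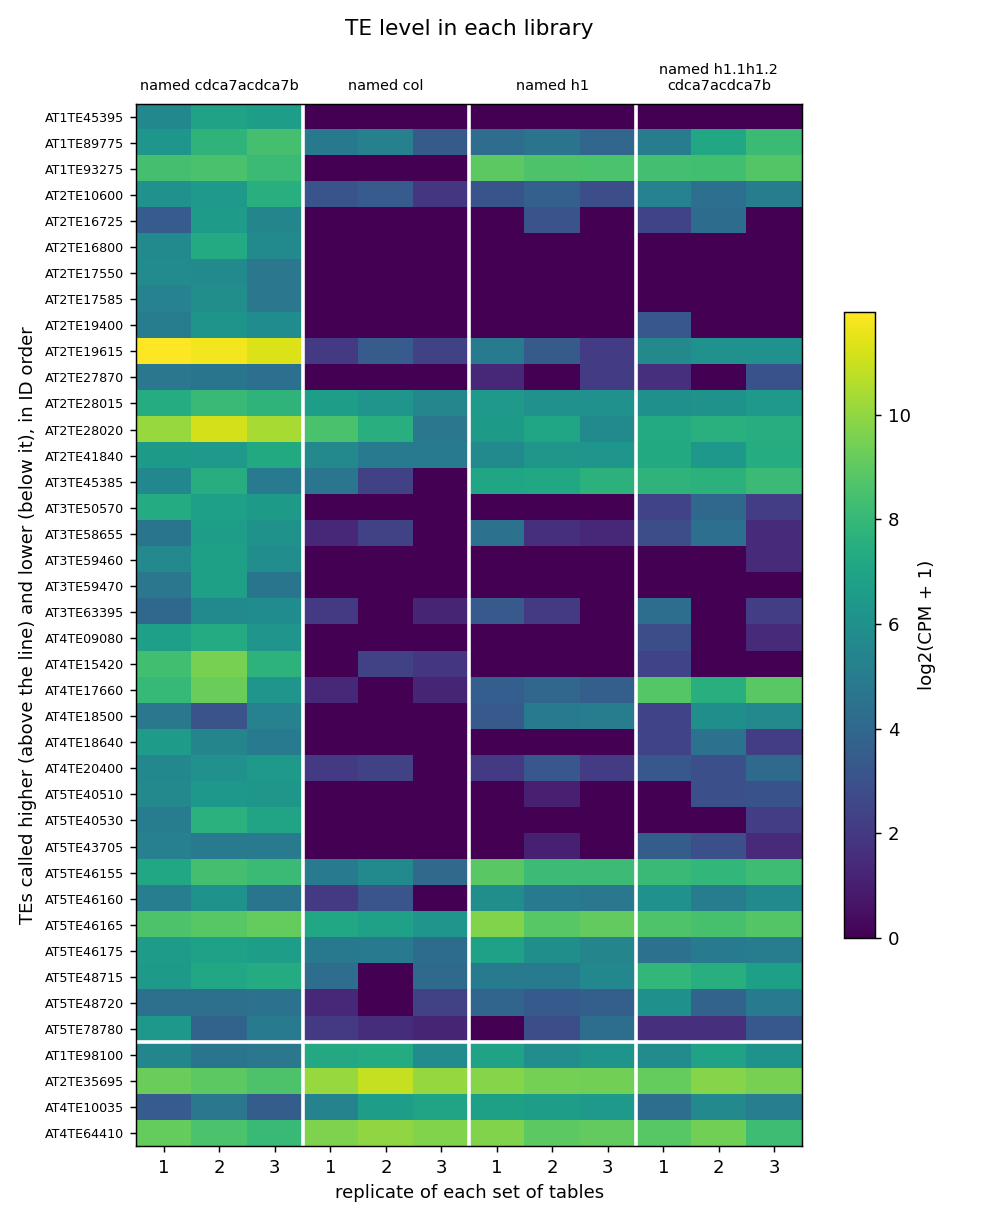
Level of the 36 higher and 4 lower TEs, as log2(CPM + 1) by color, in each of the 12 libraries, with 1 row per TE in identifier order. The 17 TEs at 0 in the col-named tables are dark throughout that set, while AT2TE19615 is the brightest row in the cdca7acdca7b-named tables.

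Some higher TEs had counts in every col-named table. AT2TE28020 had 651, 1279 and 891 counts in the cdca7acdca7b-named tables, against 237, 93 and 19 in the col-named tables, a log2 fold change of 3.07 (SE 0.58, adjusted p = 0.00255, edgeR). Its neighbor AT2TE28015 had 99, 150 and 142 counts against 66, 38 and 33, a log2 fold change of 1.57 (SE 0.33), the smallest among the 36. Both elements were higher in every cdca7acdca7b-named library than in any col-named library. AT1TE89775 had 45, 117 and 224 counts in the cdca7acdca7b-named tables, against 18, 18 and 7 in the col-named tables, and AT2TE10600 had 39, 47 and 122 counts against 5, 5 and 2. The cdca7acdca7b-named replicate that was highest thus differed from element to element.

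The 4 lower TEs had counts in every library. AT4TE10035 had 6, 14 and 7 counts in the cdca7acdca7b-named tables, against 26, 53 and 91 in the col-named tables, and its log2 fold change was -2.54 (SE 0.50, adjusted p = 0.00352, edgeR). AT2TE35695 had 369, 267 and 262 counts against 730, 969 and 782, a log2 fold change of -1.44 (SE 0.26). Both were called in each of the 6 fits that left out a library. AT1TE98100, with 26, 13 and 17 counts in the cdca7acdca7b-named tables against 96, 82 and 39 in the col-named tables, was called in 2 of those fits. AT4TE64410, with 328, 204 and 182 counts against 517, 508 and 601, was called in 3 of them.

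Among genes, 4461 of 35651 had enough counts to be tested, and 90 were called higher in the cdca7acdca7b-named tables (2.02% of those tested) and 7 lower (0.157%), 97 in all (2.17%). The higher genes were of 2 kinds with different patterns over the libraries: 75 were protein coding, and 15 were annotated as pseudogenes (10) or long noncoding RNA (lncRNA) genes (5). Pseudogenes were called higher in 10 of 59 tested (16.9%), lncRNA genes in 5 of 307 (1.63%) and protein-coding genes in 75 of 4049 (1.85%). The share of pseudogenes is raised by the count filter, since 6 of the 10 were at 0 in every col-named table and were tested only through libraries where they are high. The count depended on single libraries. Without cdca7acdca7b-named replicate 1 it was 21 higher and 5 lower, without replicate 2 it was 513 and 67, and without replicate 3 it was 110 and 2. Without col-named replicate 1 it was 8 higher and 1 lower, without replicate 2 it was 5 and 0, and without replicate 3 it was 6 and 3. Where 0 genes were called lower, 163 had an unadjusted p under 0.05, and with no library left out DESeq2 called 15 lower. A fit with the replicate number as a block, though no pairing by number is given, called 31 higher and 3 lower.

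The protein-coding genes followed the make-up of the libraries. Their median level was 430 CPM (counts scaled by library size and TMM factor) in cdca7acdca7b-named replicate 1, 25.8 in replicate 2 and 88.1 in replicate 3, against 10.8, 11.9 and 9.58 CPM in col-named replicates 1, 2 and 3. In 69 of the 75, replicate 1 was the highest and replicate 2 the lowest of the 3, the same order as the photosynthesis share. In 48 of the 75, the 3 cdca7acdca7b-named libraries all lay above the 3 col-named ones, beside 9.26% of all genes tested. Without replicate 1, 6 of the 75 were still called. How far the make-up of replicate 1 sets these calls was not tested.

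The 15 pseudogenes and lncRNA genes did not follow that order. Their median level was 45.7, 116 and 74.4 CPM in cdca7acdca7b-named replicates 1, 2 and 3, against 0 CPM in each col-named replicate. In none of the 15 was replicate 1 the highest and replicate 2 the lowest. In all 15 the cdca7acdca7b-named libraries lay above the col-named ones, beside 9.26% of all genes tested. The 15 were picked as called higher, so this is no separate evidence of a difference. Of the 15, 7 were at 0 in every col-named table and were tested only through libraries where they are high. When replicate 1 was left out, 14 were still called. The plot of the higher genes by kind shows these lines beside those of the protein-coding genes.

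**Figure D3:**
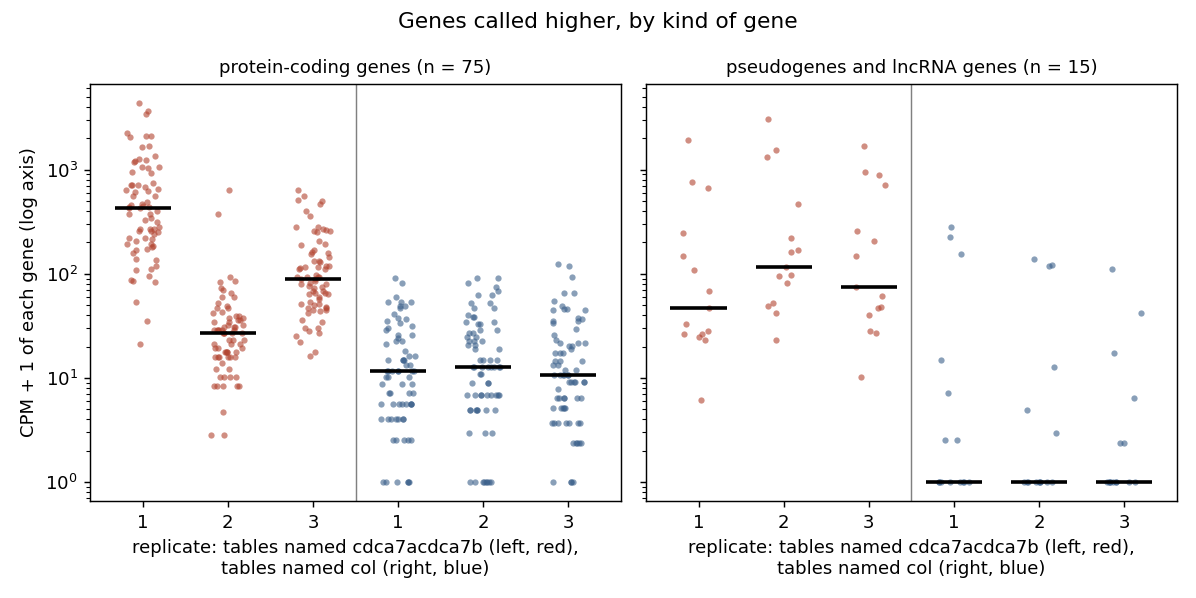
CPM + 1 on a log axis of each gene called higher, in the 3 cdca7acdca7b-named libraries (red) and the 3 col-named libraries (blue), where a point is a gene and the bar is the median. The protein-coding genes (left) follow replicate 1 above 3 above 2 within the cdca7acdca7b-named set, with median levels of 430, 88.1 and 25.8 CPM, and the pseudogenes and lncRNA genes (right) do not, with 45.7, 74.4 and 116 CPM in replicates 1, 3 and 2.

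Only 5 genes were called higher in the fit of all libraries and in each of the 6 fits that left out 1 library: 3 pseudogenes, 1 lncRNA gene and 1 protein-coding gene. Their start windows, from 250 bases before the annotated start to 50 bases into the gene, are printed here because these genes were called in every such fit. Of the 5, AT5G35935 was no longer called when the 6 libraries compared were fitted alone. The sequences were read from the RefSeq copy of TAIR10.1, 5′ to 3′ on the strand of the gene, and CG dinucleotides, the sites whose methylation CDCA7 and DDM1 help to keep, are in capitals. Methylation was not measured in these libraries. The windows are chr3:14790924-14791223 on the plus strand (AT3G06465), chr1:13847576-13847875 on the minus strand (AT1G36630), chr4:2013447-2013746 on the plus strand (AT4G04170), chr5:14089842-14090141 on the minus strand (AT5G35935) and chr2:2263566-2263865 on the plus strand (AT2G05915).
AT3G06465: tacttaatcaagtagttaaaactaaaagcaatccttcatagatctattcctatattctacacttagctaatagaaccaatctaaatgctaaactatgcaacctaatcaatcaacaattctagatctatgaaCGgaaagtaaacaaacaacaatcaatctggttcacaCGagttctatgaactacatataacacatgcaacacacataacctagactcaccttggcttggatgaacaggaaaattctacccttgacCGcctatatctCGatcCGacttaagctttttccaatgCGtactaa
AT1G36630: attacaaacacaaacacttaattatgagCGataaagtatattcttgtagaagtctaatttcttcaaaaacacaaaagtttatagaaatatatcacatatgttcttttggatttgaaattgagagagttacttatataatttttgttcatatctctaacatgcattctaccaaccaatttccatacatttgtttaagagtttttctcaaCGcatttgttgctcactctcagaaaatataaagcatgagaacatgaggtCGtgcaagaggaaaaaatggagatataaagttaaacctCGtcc
AT4G04170: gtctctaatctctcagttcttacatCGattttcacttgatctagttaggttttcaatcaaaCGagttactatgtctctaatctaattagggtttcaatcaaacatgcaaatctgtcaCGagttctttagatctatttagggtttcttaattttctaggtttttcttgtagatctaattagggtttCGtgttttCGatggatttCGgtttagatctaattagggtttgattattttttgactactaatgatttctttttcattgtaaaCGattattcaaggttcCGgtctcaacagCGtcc
AT5G35935: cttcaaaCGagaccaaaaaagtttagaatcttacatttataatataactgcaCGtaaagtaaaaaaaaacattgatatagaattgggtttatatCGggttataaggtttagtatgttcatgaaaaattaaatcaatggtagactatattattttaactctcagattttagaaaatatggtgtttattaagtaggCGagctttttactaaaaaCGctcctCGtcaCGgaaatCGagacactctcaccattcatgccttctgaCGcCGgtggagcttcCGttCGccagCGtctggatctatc
AT2G05915: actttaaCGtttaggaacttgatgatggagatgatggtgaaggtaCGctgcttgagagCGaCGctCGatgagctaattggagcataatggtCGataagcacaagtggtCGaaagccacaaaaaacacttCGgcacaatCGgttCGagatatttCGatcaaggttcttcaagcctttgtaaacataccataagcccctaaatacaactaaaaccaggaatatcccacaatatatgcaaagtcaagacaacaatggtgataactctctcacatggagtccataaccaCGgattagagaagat
The windows held 6, 4, 9, 13 and 12 CG dinucleotides, in the order printed. A search for CG, which reads the same on both strands, found at least 1 in 98.1% of the windows of all genes tested, with a median of 6, and the median over the 90 higher genes was 7.

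AT3G06465, a 608 bp lncRNA gene at chr3:14791174-14791781, had 1142, 1640 and 1098 counts in the cdca7acdca7b-named tables, against 0, 2 and 1 in the col-named tables. AT1G36630, a pseudogene of 7481 bp on the minus strand of chromosome 1, had 63, 118 and 135 counts and 0 in each col-named table. AT4G04170, a 4632 bp pseudogene near the top of chromosome 4, had 86, 91 and 170 counts in the cdca7acdca7b-named tables, against 4, 0 and 4 in the col-named tables, and its log2 fold change was 5.45 (SE 0.53, adjusted p = 5.2e-05, edgeR). In each of these genes the lowest cdca7acdca7b-named library was far above the highest col-named library. AT5G35935, a 6504 bp pseudogene, had 14, 22 and 17 counts against 1, 0 and 0, a ratio of 55.8 with an exact counting interval of 9.59 to 2244. AT2G05915, the protein-coding gene among the 5, had 372, 344 and 363 counts in the cdca7acdca7b-named tables, against 38, 17 and 68 in the col-named tables, a log2 fold change of 3.27 (SE 0.32). It spans 450 bp, and its 3 cdca7acdca7b-named libraries were nearly equal.

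Of the other 7 higher pseudogenes, 5 were at 0 in the col-named tables. AT2G10250 had 15, 88 and 40 counts in the cdca7acdca7b-named tables and 0 in each col-named table, at least 50.2-fold higher. AT5G29562 had 19, 52 and 49 against 0 in each, at least 42.1-fold higher, and AT2G10620 had 27, 51 and 31 against 0 in each, at least 38.2-fold higher. AT3G42360, with 16, 63 and 18 counts against 0 in each, was at least 34.02-fold higher, and TE AT3TE59470 had 15, 59 and 16 counts in the same libraries. Gene and TE tables count the same reads separately, so a locus annotated as both can appear in each. AT2G11640 had 15, 28 and 30 counts against 0 in each, at least 25.6-fold higher. The adjacent pseudogenes AT2G15800 and AT2G15810 had counts in both sets: AT2G15800 had 448, 709 and 625 counts in the cdca7acdca7b-named tables against 144, 70 and 30 in the col-named tables, and AT2G15810 had 395, 835 and 583 counts against 181, 60 and 12. In both, the lowest cdca7acdca7b-named library was above the highest col-named library.

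The lncRNA genes other than AT3G06465 all lie on chromosome 2. AT2G04735 had 40, 44 and 97 counts in the cdca7acdca7b-named tables, against 1, 6 and 0 in the col-named tables. AT2G36792 had 146, 254 and 462 counts against 100, 61 and 80, a log2 fold change of 1.88 (SE 0.37). AT2G05675 had 13, 26 and 26 counts against 9, 1 and 1. The near neighbor AT2G05705 had 3, 12 and 6 counts in the cdca7acdca7b-named tables and 0 in each col-named table, at least 7.37-fold higher. None of these 4 was called in all fits that left out a library.

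The protein-coding genes with the largest fold changes had very low col-named counts. AT2G07215 had 31, 204 and 35 counts in the cdca7acdca7b-named tables, against 1, 0 and 1 in the col-named tables, a ratio of 142 with an exact counting interval of 38.9 to 1179. AT5G28090 had 51, 23 and 10 counts and 0 in each col-named table, at least 29.5-fold higher. Unlike these, *J3* (AT3G44110), which encodes a DnaJ co-chaperone, had 80, 4 and 17 counts against 0 in each, at least 35.4-fold higher, in the replicate order of the photosynthesis genes. *RPL27* (AT5G40950), a plastid ribosomal protein gene, had 126, 5 and 44 counts against 0, 3 and 0, and *SSR16* (AT4G34620) had 101, 4 and 27 counts against 0, 1 and 1, again in that order. AT5G36900 was level over its replicates, with 20, 20 and 18 counts in the cdca7acdca7b-named tables against 1, 0 and 0 in the col-named tables.

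Of the 45 photosynthesis genes, 35 were tested, 20 were called higher and 0 lower, with 0 lower also at an unadjusted p under 0.05 and by DESeq2. The list was chosen after counts of these libraries had been seen, so it is not independent evidence of its direction. The median log2 fold change of the 35 was 3.96, beside 0.05 over all genes tested. It was 1.66 without cdca7acdca7b-named replicate 1, and then 1 of the 35 was called, *PSBO1* (AT5G66570), a subunit of the oxygen-evolving complex of photosystem II. *PSBO1* had 1335, 28 and 309 counts in the cdca7acdca7b-named tables, against 23, 19 and 24 in the col-named tables. *RBCS1A* (AT1G67090), a Rubisco small subunit gene, had 2140, 35 and 338 counts against 59, 45 and 86, so the sets overlapped. *CAB1* (AT1G29930), a light-harvesting chlorophyll a/b protein gene, had 2588, 46 and 419 counts against 52, 45 and 89, and also overlapped. In 6 of the 20 the sets did not overlap, among them *GAPA* (AT3G26650) and *GAPB* (AT1G42970), the chloroplast glyceraldehyde-3-phosphate dehydrogenase subunits, with 200, 17 and 55 and 266, 15 and 64 counts in the cdca7acdca7b-named tables, against 4, 6 and 7 and 5, 6 and 4 in the col-named tables.

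The other lists held few genes that could be tested. Of 8 housekeeping genes, 2 were tested and 0 were called: by DESeq2 both were higher, and both had an unadjusted p under 0.05 by edgeR. AT5G60390, which encodes translation elongation factor EF1A, had 338, 8 and 46 counts in the cdca7acdca7b-named tables, against 5, 9 and 6 in the col-named tables, and *GAPC2* (AT1G13440) had 267, 2 and 43 counts against 9, 5 and 11. Housekeeping genes thus had the same order over the replicates as the photosynthesis genes. None of 31 genes of the DNA methylation and silencing machinery had enough counts to be tested, and they summed to 159, 31 and 41 counts in the cdca7acdca7b-named tables and 11, 16 and 21 in the col-named tables. None of 4 genes known to be silenced by DNA methylation was tested either, at sums of 6, 2 and 2 counts against 0, 7 and 6.

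Of the 7 lower genes, 6 were protein coding and 1 was an lncRNA gene, and none of them was called in all 6 fits that left out a library. AT2G30615 had 909, 752 and 463 counts in the cdca7acdca7b-named tables, against 2512, 3044 and 2493 in the col-named tables, a log2 fold change of -1.87 (SE 0.36, adjusted p = 0.0265, edgeR). It lies on the minus strand of chromosome 2, with 2344 bp between it and the start of *H1.2*, which is on the plus strand. Its counts were 1800, 2335 and 1853 in the h1-named tables and 869, 1681 and 685 in the quadruple mutant tables. *HAF2* (AT3G19040), which encodes a TAF1-type histone acetyltransferase, had 12, 2 and 4 counts in the cdca7acdca7b-named tables, against 18, 40 and 58 in the col-named tables. AT3G51330 had 12, 16 and 14 counts against 30, 98 and 76. In all 6 protein-coding genes the 3 cdca7acdca7b-named libraries lay below the 3 col-named ones, beside 7.96% of all genes tested. *TRM6* (AT3G05750), which encodes a TON1-recruiting motif protein, had 35, 36 and 19 counts against 108, 70 and 74, AT5G27290 had 21, 24 and 38 against 45, 74 and 112, and AT5G35926 had 25, 19 and 22 against 82, 43 and 43. The lncRNA gene AT2G05015 had 8, 12 and 2 counts in the cdca7acdca7b-named tables, against 682, 736 and 0 in the col-named tables, so it overlapped and rested on 2 col-named libraries.

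By chromosome, the higher TEs were 3 of 164 tested on chromosome 1 (1.83%), 11 of 135 on chromosome 2 (8.15%), 6 of 145 on chromosome 3 (4.14%), 6 of 105 on chromosome 4 (5.71%) and 10 of 204 on chromosome 5 (4.90%). Chromosome 2 also held the most higher genes, 22 of 675 tested (3.26%), followed by 21 of 850 on chromosome 3 (2.47%). Chromosomes 1, 4 and 5 held 20 of 1204, 10 of 697 and 17 of 1023 (1.66%, 1.43% and 1.66%). None of 10 chloroplast and 2 mitochondrial genes tested was called in either direction, at an adjusted p by edgeR, at an unadjusted p under 0.05 or by DESeq2. The pseudogenes and lncRNA genes were the ones concentrated on chromosome 2, with 9 of the 15, against 1, 2, 1 and 2 on chromosomes 1, 3, 4 and 5. Tested genes of any kind other than protein coding numbered 112, 78, 75, 60 and 75 on chromosomes 1 to 5. DESeq2 called 295 higher genes and 36 higher TEs in all, and those that edgeR did not test are left out here. Among the features that edgeR tested, the order of chromosomes by number of calls depended on the tool. Of these features, DESeq2 called 38, 35, 34, 23 and 37 higher genes and 2, 8, 4, 7 and 10 higher TEs on chromosomes 1 to 5. These are counts over features that lie close together and are not independent, and no test was made over them.

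Each chromosome's listed identifiers were then split in order into 10 equal bins, since identifiers number features along the chromosome. Over the chromosomes together, higher TEs gathered in bins 4 and 5. They were 11 of 29 tested in bin 4 (37.9%) and 8 of 20 in bin 5 (40.0%), against 0 of 157 in bin 1, 0 of 99 in bin 9 and 3 of 177 in bin 10. Bin 6 held 2 of 19 (10.5%) and bin 7 held 6 of 47 (12.8%). The chromosomes differed: bins 4 and 5 held 4 and 2 on chromosome 2, 3 and 1 on chromosome 4 and 2 and 5 on chromosome 5. They held 1 and 0 on chromosome 1 and 1 and 0 on chromosome 3, where bin 7 held 3. In bin 1, where 0 TEs were called, the unadjusted p by edgeR was under 0.05 for 2 higher and 10 lower TEs. In bin 9, also with 0 called, it was under 0.05 for 6 higher and 10 lower TEs. Among the TEs that edgeR tested, DESeq2 called 0 in both bins, and its calls among other TEs are not counted here. Bins 4 to 6 together, a grouping chosen after these counts were seen, held 21 of 68 tested TEs (30.9%), beside 15 of 685 (2.19%) in the other bins. These shares are not free of the count filter, since a TE at 0 in the col-named tables is tested only through libraries where it is high. Over all listed TEs the counts were 21 of 9356 in bins 4 to 6 and 15 of 21833 elsewhere. All 4 lower TEs lay outside bins 4 to 6.

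Higher genes were spread more evenly along the order. They were 31 of 1100 tested in bins 4 to 6 (2.82%) and 59 of 3349 elsewhere (1.76%), and the highest share was in bin 2, with 12 of 321 (3.74%). The 31 became 8 without cdca7acdca7b-named replicate 1, 136 without replicate 2 and 4, 2 and 3 without col-named replicates 1, 2 and 3. Identifier order followed the annotated start for nearly all genes: the bin by identifier and the bin by start differed by more than 1 in 114 of 4446 tested genes with a position. AT3G06465 was the 1 such gene among the 90, in bin 2 by identifier and bin 7 by start. By start, the protein-coding genes ran from 2.00% to 97.7% of the length of chromosome 1 and from 0.829% to 97.0% of chromosome 3. The pseudogenes and lncRNA genes lay at 45.5% of chromosome 1, at 61.8% and 63.0% of chromosome 3, at 10.8% of chromosome 4, at 41.5% and 52.2% of chromosome 5, and from 7.22% to 78.3% of chromosome 2.

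**Figure D4:**
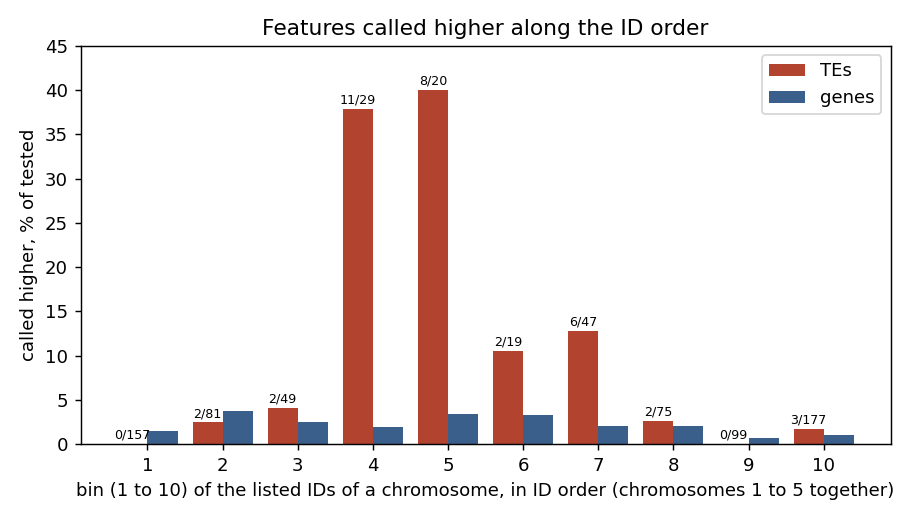
Share of tested features called higher (%) in each of 10 bins of the identifier order, chromosomes 1 to 5 together, for TEs (red, with the number called over the number tested) and genes (blue). The TE bars reach 37.9% in bin 4 and 40.0% in bin 5, and the highest gene bar is 3.74% in bin 2.

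Some called features stood near each other in the order. Within 10 listed identifiers of another, 14 of the 36 higher TEs fell into 6 runs, and 15 of the 90 higher genes fell into 7 runs. The same share over all tested features was not counted, so whether these numbers exceed it was not tested. The longest run was 4 TEs within 5 identifiers on chromosome 5. AT5TE46155 had 82, 188 and 188 counts in the cdca7acdca7b-named tables, against 19, 26 and 12 in the col-named tables. AT5TE46160 had 20, 38 and 16 counts against 2, 4 and 0, AT5TE46165 had 229, 252 and 369 against 90, 57 and 54, and AT5TE46175 had 57, 61 and 68 against 18, 15 and 13. All 4 had counts in the col-named set, unlike the 17 higher TEs at 0 there, and all were called in each fit that left out a library. AT3TE59460 and AT3TE59470 formed a run on chromosome 3, and AT5TE40510 and AT5TE40530 another on chromosome 5. Neighboring genes were often members of a duplicated family, such as *CAB1*, *CAB2* and *CAB3* (AT1G29910 to AT1G29930), *GOX1* and *GOX2*, which encode glycolate oxidase, and *RBCS2B* and *RBCS3B*. Uniquely mapped reads were counted, so the count of each near-identical copy is uncertain.

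**Figure D5:**
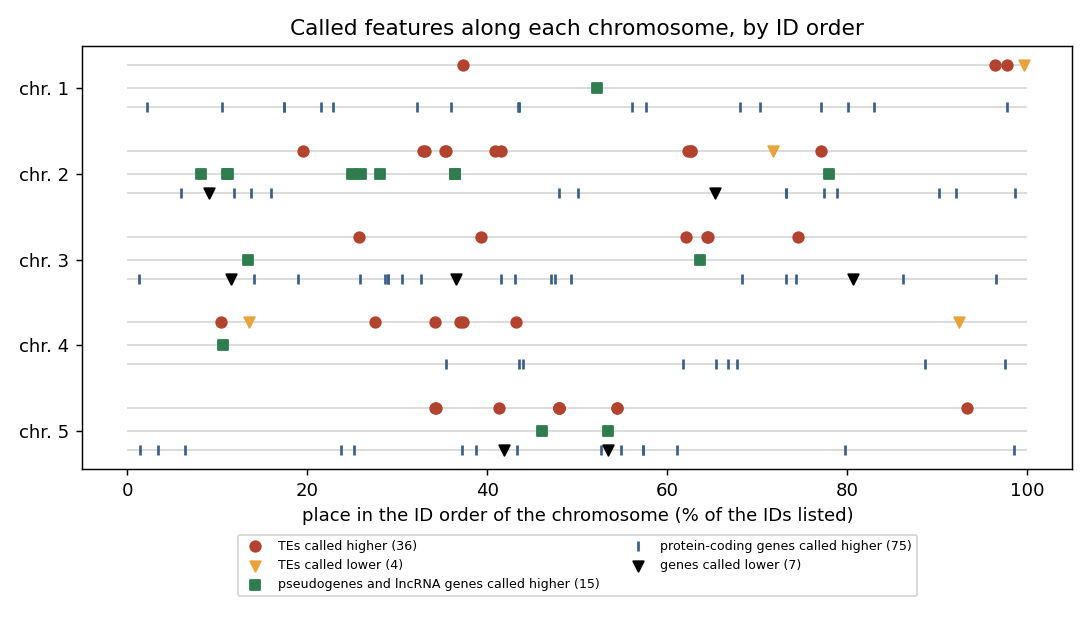
Place of every called feature in the identifier order of its chromosome (% of the identifiers listed), with higher and lower TEs on the upper line of each chromosome, higher pseudogenes and lncRNA genes on the middle line, and higher protein-coding genes and all lower genes on the lowest line. Chromosome 2 holds 11 of the 36 higher TEs and 9 of the 15 pseudogenes and lncRNA genes, and the 75 protein-coding genes are spread along all 5 chromosomes. Of the 753 tested TEs, 135 are on chromosome 2.

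Summed over a whole chromosome, no level passed the test after adjustment, which 3 against 3 could not have done. The exact two-sided permutation test over libraries, which cannot fall below p = 0.1 with 3 against 3, gave 0.1 to 0.7 for the genes of the 7 chromosomes and 0.1 to 0.6 for the TEs of the 5 nuclear ones, and adjusted values were 0.583 or more for genes and 0.5 or more for TEs. TEs of chromosome 3 summed to 54104 ± 12834 CPM in the cdca7acdca7b-named tables and 78385 ± 20132 CPM in the col-named tables (SD, n = 3 each, exact p = 0.1), without overlap between the sets. AT3TE32730, which had the most TE counts, took 16.6%, 12.3% and 9.28% of TE counts in the cdca7acdca7b-named tables, against 14.6%, 21.7% and 18.2% in the col-named tables. Mitochondrial genes summed to 471, 505 and 1361 CPM in the cdca7acdca7b-named tables, against 308, 414 and 428 CPM in the col-named tables (exact p = 0.1), also without overlap.

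Presence in every replicate was counted next, over all listed features rather than those tested. At least 1 count in all 3 replicates was seen for 8065 genes in the cdca7acdca7b-named tables and 6572 in the col-named tables, which is 40.9% of the 19726 and 43.3% of the 15194 genes with a count in any replicate of the set. For TEs the numbers were 1080 and 971, or 38.8% of 2785 and 44.9% of 2161. In all 6 libraries a count was seen for 5581 genes and 841 TEs. The larger totals of the cdca7acdca7b-named set come with more genes detected in replicate 1 (17286) and replicate 3 (13676) than in replicate 2 (10449), where the number was close to the 10627, 10167 and 10822 of the col-named tables.

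Features present throughout one set and absent from the other went almost all one way. With at least 5 counts in each replicate of one set and 0 in each of the other, 16 genes and 28 TEs were found in the cdca7acdca7b-named tables and 0 genes and 0 TEs in the col-named tables. With at least 3 counts in each replicate, the numbers were 72 genes and 38 TEs in the cdca7acdca7b-named tables, against 3 genes and 2 TEs in the col-named tables. Of the 16 genes, 10 were pseudogenes and 6 protein coding, and 7 of the 16 lay on chromosome 2. Of the 28 TEs, 11 lay on chromosome 2 and 19 lay in bins 4 to 6 of the identifier order. Chromosome 2 holds 5828 of the 35651 listed genes and 5949 of the 31189 listed TEs. Bins 4 to 6 hold 9356 of the listed TEs. A TE or gene at 0 in one set and low in the other passes the count filter only through the higher set. The 7 of the 16 genes and 16 of the 28 TEs that were tested are therefore no separate evidence of a difference. Gene and TE tables count the same reads separately, so the 16 genes and 28 TEs can share loci. For example, AT2G12040 had 17, 6 and 18 counts and AT2TE20105 had 17, 6 and 19 in the cdca7acdca7b-named tables. How many loci the genes and TEs share was not tested.

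Several of the 16 genes and 28 TEs had no counts in any other library of the series. Of the 28 TEs, 12 had 0 counts in all 9 other libraries, as had 5 of the 16 genes. The col-named libraries among the 9 are at 0 by the rule that picked these features. Only the h1-named and quadruple mutant libraries therefore add to this count. On chromosome 2, AT2TE17550 (32, 27 and 17 counts in the cdca7acdca7b-named tables), AT2TE17570 (17, 27 and 10), AT2TE17580 (11, 34 and 9) and AT2TE17585 (23, 32 and 17) lay close together in the order and were at 0 in each of the other 9. AT5TE50965 was alike on chromosome 5, with 36, 57 and 10 counts in the cdca7acdca7b-named tables. Among genes, pseudogene AT2G10611 had 25, 18 and 7 counts and the protein-coding gene AT2G33220 had 24, 6 and 11 counts in the cdca7acdca7b-named tables, with 0 in all others. AT3G42356 had 9, 18 and 12 counts in the same tables and 0 elsewhere, near AT3G42360 in the order.

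In the other sets of the series, levels of the higher TEs varied from element to element. All sets were fitted in 1 model and comparisons with col-named tables share those tables, so values are given side by side. The median over the 36 higher TEs of the mean level was 85.7 CPM in the cdca7acdca7b-named tables, 6.63 CPM in the h1-named tables, 9.60 CPM in the quadruple mutant tables and 1.23 CPM in the col-named tables. The 36 were called for being higher in the cdca7acdca7b-named than in the col-named tables. The medians of those sets, and where the other sets lie between them, are therefore shaped by that selection. Of the 36, 12 had 0 counts in all 3 h1-named tables and 5 had 0 in all 3 quadruple mutant tables. AT1TE93275 had 321, 373 and 242 counts in the h1-named tables and 155, 147 and 241 in the quadruple mutant tables, so it had counts in every library outside the col-named set. AT4TE17660 had 208, 83 and 263 counts in the quadruple mutant tables and 7, 14 and 7 in the h1-named tables. AT4TE15420 was at 0 in each h1-named table and at 2, 0 and 0 in the quadruple mutant tables, and AT2TE19615 had 19, 9 and 2 counts in the h1-named tables and 23, 30 and 36 in the quadruple mutant tables.

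The higher genes also varied between the other sets. AT5G35935 had 27, 40 and 19 counts in the h1-named tables and 18, 20 and 22 in the quadruple mutant tables, so both sets overlapped its 14, 22 and 17 counts in the cdca7acdca7b-named tables. The lncRNA gene AT2G05705 had 40, 58 and 39 counts in the h1-named tables and 28, 25 and 36 in the quadruple mutant tables, all above its 3, 12 and 6 in the cdca7acdca7b-named tables. AT4G04170 had 5, 5 and 3 counts in the h1-named tables and 24, 18 and 36 in the quadruple mutant tables. AT1G36630 was at 0 in each h1-named table and at 1, 0 and 4 in the quadruple mutant tables, and AT3G06465 had 5, 0 and 0 and 17, 38 and 11 counts in those sets. AT2G05915 had 17, 21 and 8 counts in the h1-named tables and 59, 68 and 68 in the quadruple mutant tables, beside 38, 17 and 68 in the col-named tables. Scaled to CPM, the h1-named libraries all lay below and the quadruple mutant libraries all above the col-named ones.

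The annotation of the higher genes differed from that of the genes tested in kind and in overlap. An opposite-strand gene overlapped 22 of the 90 (24.4%), against 60.8% of tested genes with a position. The share was 25.3% for the 75 protein-coding genes, against 58.9% of protein-coding genes tested, and 3 of the 15 pseudogenes and lncRNA genes overlapped such a gene, against 80.9% of those tested. Median gene length was 1831.5 bp for the 90 and 2042.5 bp for all tested. These are descriptions over genes, and whether the strand of the counted reads has a part in them was not tested.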

How the data were processed

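RNA was extracted from 14-day seedlings, and libraries were made from 500 ng with the TruSeq Stranded mRNA kit and sequenced on a NovaSeq X Plus. Per the labels and the study's methods, the authors trimmed reads with Trim Galore 0.6.7, aligned them to TAIR10 with STAR 2.7.11a, keeping uniquely mapped reads with under 5% mismatches, and counted them with HTSeq 0.13.5. The deposited values are raw counts per gene and per TE, 1 table of each for each of 12 samples. Summary lines, which name no feature, were 97.6 to 98.4% of the gene tables and 99.4 to 99.6% of the TE tables and were left out. What made them so large is not given in the sources used here.

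Groups followed the table names, kept beside the sample titles, which put the same libraries together under other names. edgeR 4.0.16 (R 4.3.3; TMM, filterByExpr, glmQLFit, glmQLFTest) was fitted to all 12 libraries with a mean per set, and p-values were adjusted by Benjamini-Hochberg over all features tested. For TEs, library sizes and scaling were those of the gene counts. CPM are counts scaled by gene library size and TMM factor. A standard error is the log2 fold change over the square root of F. The scripts were tested on simulated data. Tables were handled in Python 3.11.15 with pandas 2.3.3, numpy 2.4.6 and scipy 1.17.1, figures were drawn with matplotlib 3.10.9, and DESeq2 1.42.0 was an alternative. p-values measure the spread between single seedlings. No replicate pair was a duplicate: the chi-square per degree of freedom of their counts was 7.98 to 16.8 for genes and 10.0 to 14.5 for TEs.

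Gene kinds and positions came from the RefSeq annotation of TAIR10.1, in which 15 of the tested genes had no matching identifier. Intervals are exact, at 95%, and cover counting error only. Named features were the targeted genes, those called in the fit of all libraries and in each of the 6 that left out a library, those called lower, the higher ones with the largest fold change and no overlap, and called members of the lists. The other features named, such as those present in 1 set only, neighbors and genes beside them, were chosen after their values were seen. The comparison, its members and the lists were chosen with earlier results of these data known. Alternatives were DESeq2, its size factors, no count filter, the 6 libraries alone, the replicate block, each library left out, and for TEs a minimum of 10 summed counts and library sizes from TE counts.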

Additional observations from a re-analysis of the deposited data

How the results depend on the processing

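Of the values of the named features under the alternatives, 640 kept direction and side of the threshold, 224 kept direction but were no longer called, and 0 reversed. The number of higher genes, 90, was 295 with DESeq2, 617 with no filter on low counts, 9 with the 6 libraries alone and 5 to 513 when each library was left out, and the number of lower genes, 7, was 15, 30, 0 (with 137 lower at an unadjusted p under 0.05) and 0 to 67. No pairing by replicate number is given in the sources used here. Same-numbered cdca7acdca7b-named and col-named libraries correlated at -0.134 to 0.0509 over genes. Over TEs they correlated at -0.0585, 0.212 and 0.234 for numbers 1, 2 and 3, too few pairs to settle whether the numbers pair the samples. A fit to all 12 libraries with the replicate number as a block gave 31 higher and 3 lower genes and 37 higher and 4 lower TEs. Higher TEs, 36, were 63 and lower TEs, 4, were 8 with no filter, and lower TEs were 2 to 7 when each library was left out. Library sizes from TE counts shifted the median TE by 0.18 on the log2 scale and gave 41 higher and 3 lower TEs. In bins 4 to 6 of the identifier order, the 31 higher genes were 4 with the 6 libraries alone, 77 with DESeq2, 163 with no filter, 13 with the block and 2 to 136 when each library was left out, and the 21 higher TEs were 32 with no filter; these TEs were 50.8% to 65.7% of the higher TEs in every alternative. Features present in 1 set alone were 72 genes at a minimum of 3 counts and 7 at 10 in the cdca7acdca7b-named tables and 3 genes and 2 TEs at a minimum of 3 in the col-named tables, and 17 TEs at a minimum of 10 in the cdca7acdca7b-named tables. No filter and other minimums change which features enter. For the other alternatives the cause was not tested. All 31 silencing machinery genes and 3 of the 4 targeted genes had too few assigned counts to test, in tables where 97.6 to 98.4% of reads were assigned to no gene or left uncounted.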
